A study of Mus musculus with 8 samples.

Results

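The 10 genes described here are targets of the transcription factor p53 that were named as a list, Mdm2, Ccng1, Sesn1, Sesn2, Trp53inp1, Phlda3, Zmat3, Gdf15, Bbc3 and Bax, out of 24980 gene symbols with an estimated read count. All 10 were found in the count table and all 10 passed the filter on low counts, which kept 17582 genes. The table covers 8 RNA-seq libraries from skeletal myogenic cells of the mouse, in 4 groups of 2 biological replicates. Fresh teratoma-derived progenitors (TF) had been sorted from teratomas that EGFP-labeled mouse embryonic stem cells (E14-EGFP in the study's main experiments) formed in irradiated and cardiotoxin-injured leg muscles of immunodeficient, dystrophin-deficient NSG-mdx4Cv mice, as cells with EGFP, α7-integrin and VCAM-1 but without CD31 and CD45. Expanded teratoma-derived cells (TE) were such cells at passage 8. Fresh satellite cells (SF), the stem cells of adult muscle, and satellite cells at passage 8 (SE) were the endogenous counterparts. Expanded cells had been grown on gelatin in a medium for myogenic expansion. The strain of the satellite cells and the number of animals or teratomas behind a library were not given in the sources used here, so that the p-values measure the spread between these libraries.

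p53 is a transcription factor that cells stabilize when DNA is damaged, when oncogenes are active or when other stresses act on them. Its targets stop the cell cycle, slow growth, help repair or start cell death, and some of them switch p53 off again. Under low stress, many of these genes keep a basal level that still depends on p53, and several also answer to other regulators, such as ATF4 for Sesn2 and Gdf15 and the FoxO factors for Sesn1 and Bbc3. In cultured primary cells, p53 and the Cdkn2a locus are known for their part in the arrest that follows long growth in a dish.

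RefSeq promoter windows (build GRCm38.p6, the 250 bases before each annotated start) were at hand for 8 of the 10 genes, not for Trp53inp1 and Zmat3, and gave 12 windows. The p53 half-site, 10 bases that read the same on both strands in consensus form, was searched without mismatch and was found in 4 of these 12 windows, against 7.13% of all 32851 windows. The 4 sequences are shown because they are those with a match, 5′ to 3′ on the strand of the gene, with the half-site in capitals. They lie at chr10:117710759-117711008 (minus strand) for Mdm2, chr11:40755287-40755536 (minus strand) for Ccng1, chr10:41887189-41887438 (plus strand) for the inner of 2 Sesn1 starts, and chr7:45466899-45467148 (minus strand) for Bax.
Mdm2: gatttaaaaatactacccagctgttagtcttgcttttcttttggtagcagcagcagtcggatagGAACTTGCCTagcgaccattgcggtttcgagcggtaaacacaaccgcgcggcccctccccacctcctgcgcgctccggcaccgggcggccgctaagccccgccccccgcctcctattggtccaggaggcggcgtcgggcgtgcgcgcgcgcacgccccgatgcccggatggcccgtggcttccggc
Ccng1: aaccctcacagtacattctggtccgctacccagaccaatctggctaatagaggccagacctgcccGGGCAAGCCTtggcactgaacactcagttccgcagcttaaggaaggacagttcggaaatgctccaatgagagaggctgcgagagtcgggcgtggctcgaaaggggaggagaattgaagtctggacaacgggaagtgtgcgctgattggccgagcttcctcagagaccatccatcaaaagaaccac
Sesn1: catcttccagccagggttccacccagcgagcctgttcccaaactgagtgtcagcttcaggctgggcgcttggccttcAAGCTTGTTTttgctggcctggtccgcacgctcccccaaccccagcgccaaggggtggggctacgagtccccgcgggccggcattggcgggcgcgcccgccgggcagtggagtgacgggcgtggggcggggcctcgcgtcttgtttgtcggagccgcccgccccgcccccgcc
Bax: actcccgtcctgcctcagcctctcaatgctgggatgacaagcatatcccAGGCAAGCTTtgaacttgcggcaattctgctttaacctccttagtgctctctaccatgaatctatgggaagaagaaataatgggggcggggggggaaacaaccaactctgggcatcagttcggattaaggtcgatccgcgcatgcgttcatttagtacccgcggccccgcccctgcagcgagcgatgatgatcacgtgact
The half-sites began 186, 185, 173 and 201 bases before the start of Mdm2, Ccng1, Sesn1 and Bax. In Ccng1 the 10 bases before the capitals completed a pair of half-sites with 1 mismatch in 20 bases, and 0.0761% of all windows held a pair with at most 1 mismatch. The 8 letters TGATGNAA, the core of a composite site that ATF4 shares with C/EBP factors, were in 0 of the 12 windows on either strand, against 3.45% of all windows. A match is a description of these letters only, and p53 sites of several of these genes are known to lie in introns, outside the windows.

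The totals were between 11930881 and 21146554 counts in a library, and the counts are given below as normalized counts, that is, counts divided by the TMM scale of each library relative to the mean of all 8. The smallest count of a member in a library was far above the limit of 3 counts, which came to between 2.31 and 4.13 normalized counts. The myogenic identity of the groups was checked with 8 marker genes, of which Pax7, Myod1, Itga7, Vcam1, Des, Myf5 and Cdh15 were found in all 8 libraries and Chrdl2 was at 0 in both TE libraries and in SE replicate 1. Their levels were not equal. By the test described below, 4 (Pax7, Myf5, Vcam1 and Chrdl2) fell with culture in both origins, where 16.2% (TE) and 19.8% (SE) of all tested genes fell. In TE versus TF the other 4 rose, and in SE versus SF 2 rose (Cdh15 and Des), where 9.86% and 20.9% rose. Summed markers of other cells were mostly higher in the fresh libraries. The summed normalized counts of 6 endothelial markers were between 1138 and 5806 in TF and SF and between 7.64 and 36.2 in TE and SE, where 3 to 5 of the 6 were at 0. Those of 6 fibro-adipogenic markers were between 21160 and 86560 against between 215 and 1355, and those of 6 pericyte and smooth muscle markers between 11210 and 15180 against between 1592 and 2611. TF replicate 1 stood apart in the 6 haematopoietic markers, with 3894 against 442 in TF replicate 2, between 299.5 and 346 in SF, 43.3 and 55.3 in TE and 133 and 195 in SE. Ptprc, which encodes CD45, had 818 and 104 normalized counts in TF and 60.6 and 25.3 in SF, and was at 0 in all 4 expanded libraries. Pecam1, which encodes CD31, had 899.5 and 90 in TF, 763 and 1185 in SF, 6.6 and 5.09 in TE and 36.2 and 17.8 in SE. RNA of both genes was thus found in TF, though TF had been sorted as cells without these proteins. Cdh5, a junction protein of endothelium, was at 0 in TE replicate 2 and in both SE libraries. In these bulk samples, fewer cells of a type and less RNA per cell cannot be told apart, and the part of these other cells in the differences between fresh and expanded groups was not tested.

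**Figure D1:**
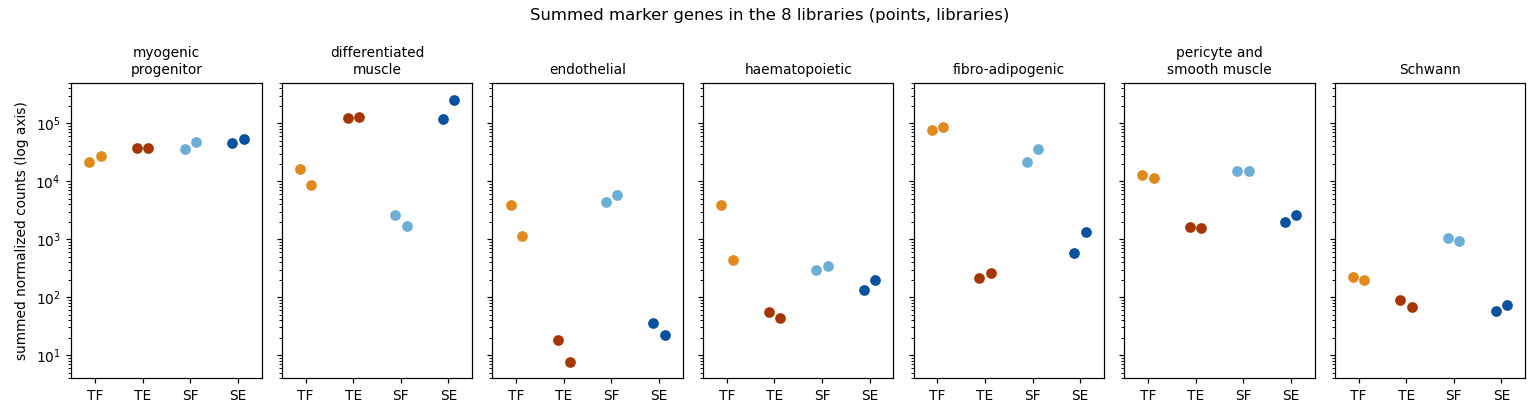
Summed normalized counts (log axis) of 7 lists of marker genes in each library, by group (TF, TE, SF, SE). Points stand for libraries, and the endothelial sums lie between 1138 and 5806 in the fresh groups and between 7.64 and 36.2 in the expanded groups.

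Most of the 10 genes had more counts after culture, in both origins, and Sesn1 in both and Sesn2 in the satellite cells departed from this pattern. In TE versus TF, 6 of the 10 rose (Mdm2, Ccng1, Sesn2, Phlda3, Zmat3 and Bax), where 9.86% of the 17582 tested genes rose, and 1 fell (Sesn1), where 16.2% fell (26.1% in either direction). In SE versus SF, 6 rose (Mdm2, Ccng1, Trp53inp1, Phlda3, Zmat3 and Bax), where 20.9% of all tested genes rose, and 0 fell, where 19.8% fell and 40.7% moved in either direction (edgeR's quasi-likelihood test, a fitted level more than 25% above that of the lower group and a p below 0.05 after Benjamini-Hochberg adjustment over all tested genes). The members and the lists below were chosen with earlier results of these data known, so the shares over all tested genes are set beside their counts as a description. The number of members that fell in SE was also 0 at an unadjusted p below 0.05 and with DESeq2. In TE versus TF the count of 7 called genes was 4 without TF replicate 1, 3 without TF replicate 2, 3 without TE replicate 1 and 5 without TE replicate 2, while in SE versus SF it was 6 or 7 without any 1 of the 8 libraries. The median log2 fold change of the 10 genes was 1.01 in TE versus TF and 1.50 in SE versus SF, against -0.18 and -0.23 over all tested genes. Median-ratio size factors moved the last value to -0.43, and with DESeq2 the share of higher genes among all called in SE versus SF was 40.8% in place of 51.4%, while the same 6 members were called. These comparisons have no library in common, though the fit estimated the spread from all 8. They shared 5 of the 6 genes that rose in TE and 5 of the 6 that rose in SE. The share of all tested genes that rose in both was not computed, so the overlap is a description only. The order of the group means was SF, TF, TE and then SE from the lowest to the highest in 5 genes (Ccng1, Trp53inp1, Phlda3, Zmat3 and Bax). The share of all tested genes with this order was not computed either.

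**Figure D2:**
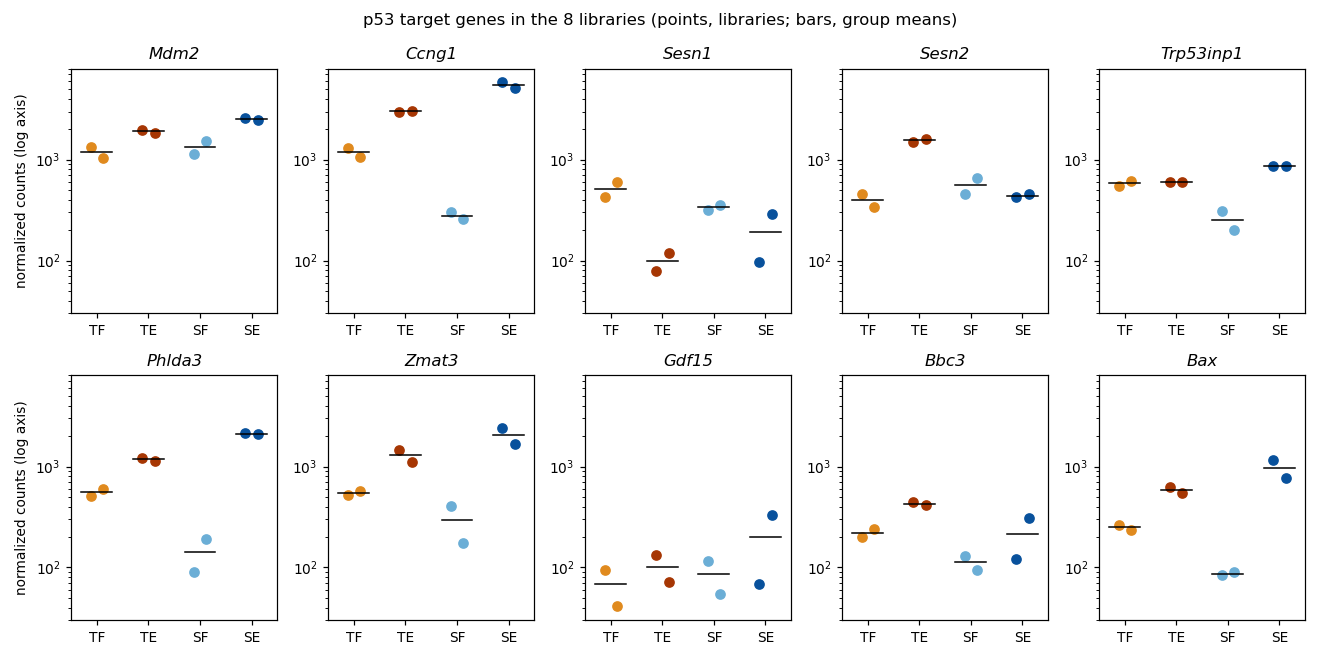
Normalized counts (log axis) of the 10 p53 target genes in the 8 libraries, by group (TF, TE, SF, SE). Points stand for libraries and bars for group means, and Ccng1 climbs from 279 in SF to 5477 in SE while Sesn1 has its lowest mean, 99.4, in TE.

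The first members by role are those that act back on p53. Mdm2 (chr10:117688875-117710758, minus strand, GRCm38, as for the genes below), the ubiquitin ligase that marks p53 for degradation, had 1337 and 1032 normalized counts in TF, 1970 and 1835 in TE, 1126 and 1516 in SF and 2575 and 2464 in SE. Both expanded groups lay above both fresh groups without overlap, and the fresh groups overlapped each other. Mdm2 rose by a log2 fold change of 0.68 in TE over TF (standard error 0.21, edgeR quasi-likelihood adjusted p = 0.0385) and of 0.93 in SE over SF (standard error 0.21, adjusted p = 0.00635). The call in TE rested on all 4 libraries, since without TF replicate 1, TF replicate 2, TE replicate 1 or TE replicate 2 the log2 fold change was between 0.54 and 0.91 and the adjusted p between 0.0621 and 0.26. It was also lost with the replicate number as a block (adjusted p = 0.0529).

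Ccng1 (chr11:40748552-40755311, minus strand), which encodes cyclin G1, a partner of the phosphatase PP2A that helps to activate Mdm2, had the widest range of the 10, its highest group mean being 19.6 times its lowest. Its normalized counts were 1318 and 1069 in TF, 2998 and 3014 in TE, 299.5 and 259 in SF and 5828 and 5126 in SE. The 4 groups did not overlap, and each step in their order passed the test. Ccng1 was higher in TF than in SF by a log2 fold change of 2.10 (standard error 0.20, edgeR quasi-likelihood adjusted p = 0.000203), in TE than in TF by 1.33 (standard error 0.19, adjusted p = 0.000788), and lower in TE than in SE, at -0.87 (standard error 0.19, adjusted p = 0.0222). The last of these calls was lost without TE replicate 1 (adjusted p = 0.209), TE replicate 2 (0.207) or SE replicate 1 (0.0613). SE over SF was 4.29 (standard error 0.21, adjusted p = 1.86e-06). Ccng1 is also the member whose promoter window above held the nearly complete pair of half-sites, and the part of this pair in its range was not tested.

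Trp53inp1 (chr4:11156431-11174379, plus strand), a nuclear protein that supports the phosphorylation of p53 and takes part in autophagy, had 553 and 612 normalized counts in TF, 602 and 604 in TE, 308 and 201 in SF and 874 and 866 in SE. The teratoma-derived groups overlapped, and SF and SE did not. It rose in SE over SF by a log2 fold change of 1.77 (standard error 0.26, edgeR quasi-likelihood adjusted p = 0.000547). In TE over TF the value was 0.05, with a 95% interval from -0.51 to 0.61 and an adjusted p of 0.906, and under median-ratio size factors it was -0.0056.

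The second group slows growth. Phlda3 (chr1:135766119-135769136, plus strand), a small protein with a pleckstrin homology domain that keeps the kinase Akt from the membrane, had 512 and 605 normalized counts in TF, 1213 and 1139 in TE, 90.3 and 192 in SF and 2154 and 2088 in SE. The 4 groups did not overlap. The log2 fold change was 3.91 in SE over SF (standard error 0.33, edgeR quasi-likelihood adjusted p = 2.4e-05) and 1.07 in TE over TF (standard error 0.29, adjusted p = 0.0242). The latter call was lost without any 1 of the 4 TF and TE libraries, where the adjusted p was between 0.0547 and 0.117 and the log2 fold change between 0.98 and 1.24.

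The sestrins Sesn1 (chr10:41809935-41908424, plus strand) and Sesn2 (chr4:132492032-132510501, minus strand) are stress proteins that restrain the growth kinase complex mTORC1, and they moved in opposite ways with culture of the teratoma-derived cells. Sesn1 had 425 and 607 normalized counts in TF, 79.2 and 120 in TE, 319 and 356 in SF and 97.2 and 288 in SE. Both fresh groups lay above both expanded groups, and SE replicate 1 lay within the range of TE. Sesn1 fell in TE versus TF by a log2 fold change of -2.37 (standard error 0.51, edgeR quasi-likelihood adjusted p = 0.00776), and the call held without any 1 of the 4 libraries (adjusted p at most 0.0477). In SE versus SF the log2 fold change of -0.81 did not pass the test (standard error 0.49, adjusted p = 0.202). It was -1.78 with an adjusted p of 0.0111 without SE replicate 2. The difference between the origins was -1.56 and did not pass (adjusted p = 0.168), but did without the filter on low counts (0.0432) and, at -2.14, without SE replicate 1 (0.0156).

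Sesn2, which also senses leucine, had 458 and 341 normalized counts in TF, 1499 and 1598 in TE, 459 and 664 in SF and 424 and 454 in SE. TE stood above the other 3 groups, which lay close together. The log2 fold change was 1.96 in TE over TF (standard error 0.25, edgeR quasi-likelihood adjusted p = 0.000476) and 1.82 in TE over SE (standard error 0.25, adjusted p = 0.00272). In SE versus SF it was -0.35, with a 95% interval from -0.91 to 0.20 (adjusted p = 0.266). The third sestrin, Sesn3, which was added here after its values had been seen, had 759 and 637 normalized counts in TF, 130 and 99.3 in TE, 115 and 239 in SF and 324 and 210 in SE. Like Sesn1 it fell in TE versus TF (log2 fold change -2.61, edgeR quasi-likelihood adjusted p = 0.00172).

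Genes of the integrated stress response, the program in which ATF4 answers to a lack of amino acids or to misfolded protein, were mostly higher in TE, as Sesn2 was. Of 15 such genes, 10 rose and 2 fell in TE versus TF, where 9.86% of all tested genes rose and 16.2% fell, with a median log2 fold change of 1.70, and 13 were higher and 0 lower in TE versus SE, where 3.15% of all tested genes were higher and 4.07% lower. The log2 fold change in TE versus SE was above 0 for each of the 15 genes, and that of Ddit4 and Slc7a11, the ones not called, was 0.96 and 1.11 (edgeR quasi-likelihood adjusted p = 0.0824 and 0.117). Trib3, a pseudokinase, had 34.4 and 159 normalized counts in TF and 3851 and 3323 in TE. Chac1, which degrades glutathione, had 56.4 and 75.7 in TF and 1378 and 1655 in TE. In the satellite cells, Trib3 had 22.6 and 52.8 in SF and 185 and 383 in SE, and Chac1 had 72.5 and 118 in SF and 160 and 291 in SE. Both passed the test in SE over SF, where Sesn2 was at -0.35 and did not, Trib3 at 2.90 (edgeR quasi-likelihood adjusted p = 0.0059) and Chac1 at 1.24 (adjusted p = 0.0223). In that comparison 6 of the 15 genes rose and 5 fell, where 20.9% of all tested genes rose and 19.8% fell, and the median was 0.12. Gdf15, also a known ATF4 target, was not called in any comparison, and the part of ATF4 in the level of Sesn2 was not tested.

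**Figure D3:**
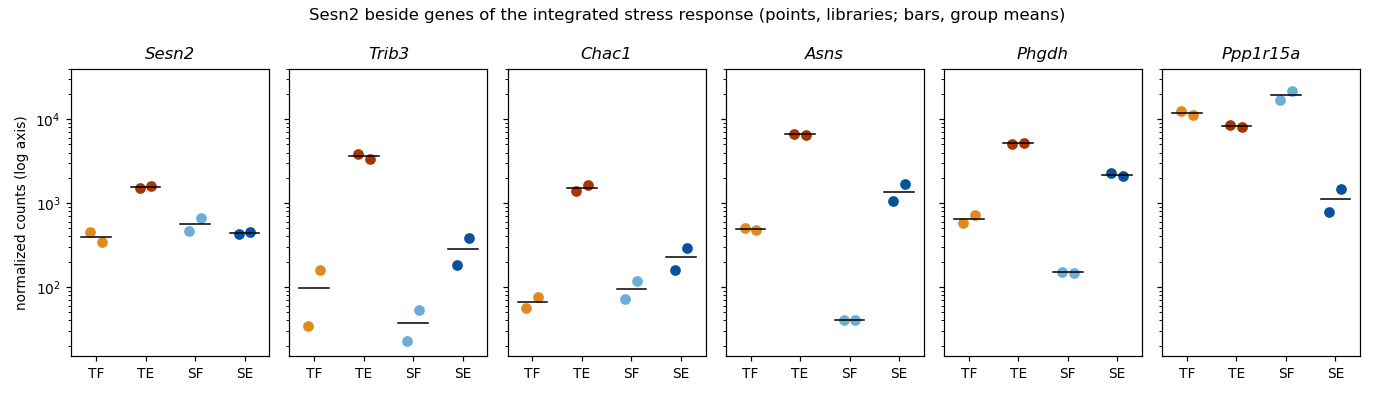
Normalized counts (log axis) of Sesn2 and of 5 genes of the integrated stress response in the 8 libraries, by group. Points stand for libraries and bars for group means, and the TE libraries of Sesn2 (1499 and 1598) lie above all others, as do those of Trib3, Chac1, Asns and Phgdh but not those of Ppp1r15a.

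Zmat3 (chr3:32334792-32366014, minus strand), a zinc finger protein that binds RNA and changes splicing, had 521 and 570 normalized counts in TF, 1468 and 1109 in TE, 410 and 174 in SF and 2435 and 1656 in SE. The 4 groups did not overlap, though the SF replicates were far apart. Zmat3 rose in SE over SF by a log2 fold change of 2.81 (standard error 0.38, edgeR quasi-likelihood adjusted p = 0.000378) and in TE over TF by 1.24 (standard error 0.36, adjusted p = 0.032). The latter was lost without TF replicate 1 (adjusted p = 0.0959), TF replicate 2 (0.0675) or TE replicate 1 (0.118).

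Gdf15 (chr8:70629393-70632456, minus strand), a secreted stress hormone of the TGF-β family, had uneven replicates in all 4 groups. It had 94.9 and 41.8 normalized counts in TF, 133 and 71.3 in TE, 117 and 55 in SF and 68.6 and 331 in SE. All 4 groups overlapped. The log2 fold changes were 0.58 in TE over TF (95% interval from -1.22 to 2.38, edgeR quasi-likelihood adjusted p = 0.629) and 1.22 in SE over SF (95% interval from -0.58 to 3.02, adjusted p = 0.24), intervals that include no change as well as changes of several fold. Without SE replicate 2 the latter was -0.30.

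The last 2 genes act in cell death. Bax (chr7:45461697-45466898, minus strand), which forms pores in the outer mitochondrial membrane, had 264 and 234 normalized counts in TF, 624 and 551 in TE, 83.2 and 89.2 in SF and 1160 and 763 in SE. The 4 groups did not overlap. The log2 fold change was 3.48 in SE over SF (standard error 0.30, edgeR quasi-likelihood adjusted p = 2.77e-05) and 1.24 in TE over TF (standard error 0.28, adjusted p = 0.0093). The call in TE was lost without TF replicate 2 (adjusted p = 0.0558) or TE replicate 1 (0.0654). In GENCODE M21 a second gene model, Gm45808, shares 192 exonic bases with Bax on the same strand, and this model had no row in the table of counts.

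Bbc3 (chr7:16308393-16318205, plus strand) encodes PUMA, a protein with only a BH3 domain that activates Bax. It had 199 and 243 normalized counts in TF, 441 and 414 in TE, 130 and 94.7 in SF and 121 and 309 in SE. TE stood above the other 3 groups, and SE overlapped TF and SF. The log2 fold change of 0.95 in TE over TF (standard error 0.45, edgeR quasi-likelihood adjusted p = 0.148) and that of 0.94 in SE over SF (standard error 0.46, adjusted p = 0.126) did not pass the test. The former passed with only the TF and TE libraries in the fit (adjusted p = 0.0235), and the latter without SE replicate 1 (log2 fold change 1.48, adjusted p = 0.0144).

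The response to culture differed between the origins for 5 of the 10 genes. The difference, TE over TF minus SE over SF, was tested in the same fit, and 1 member was higher (Sesn2), where 4.70% of all tested genes were higher, and 4 were lower in the teratoma-derived cells (Ccng1, Phlda3, Bax and Trp53inp1), where 9.62% were lower (14.3% in either direction). The median difference of the 10 genes was -1.57, against -0.18 over all tested genes. It was -2.96 for Ccng1 (standard error 0.27, edgeR quasi-likelihood adjusted p = 0.000243), -2.83 for Phlda3 (standard error 0.43, adjusted p = 0.00273) and -2.24 for Bax (standard error 0.39, adjusted p = 0.00559). In these 3 genes TF already lay above SF, by log2 fold changes of 2.10, 1.98 and 1.53, while TE over SE was at -0.87, -0.85 and -0.71, of which the last 2 did not pass the test. For Trp53inp1 the difference was -1.72 (standard error 0.36, adjusted p = 0.0117), and it was lost without TE replicate 1 (adjusted p = 0.0526) or TE replicate 2 (0.051). For Zmat3 it was -1.57 and did not pass (adjusted p = 0.0713), but did with the replicate block (0.028), without the filter on low counts (0.000194), without SF replicate 1 (0.00877) and without SE replicate 2 (0.0165). For Sesn2 it was 2.31 (standard error 0.35, adjusted p = 0.00295). The intervals for Mdm2 (from -0.91 to 0.41) and Bbc3 (from -1.45 to 1.48) held 0.

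**Figure D4:**
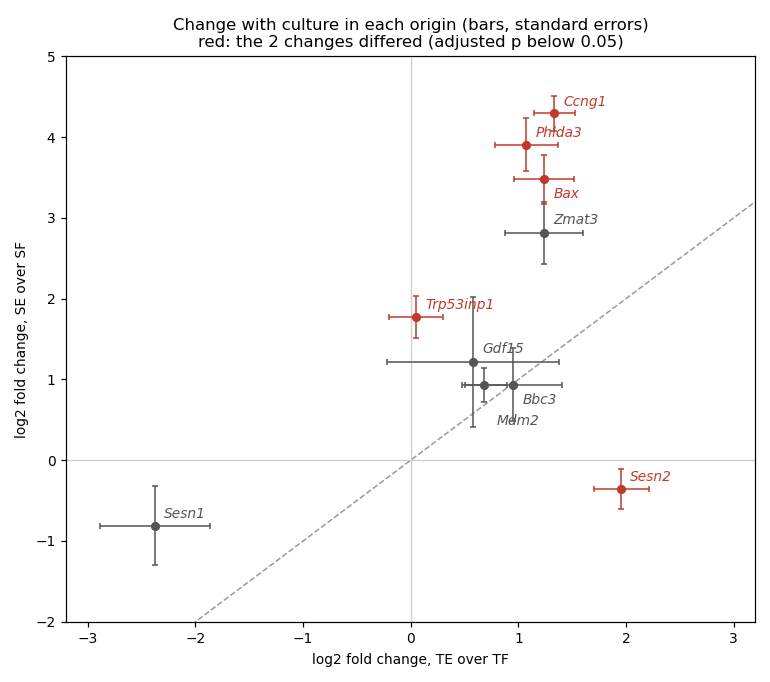
Log2 fold change of each member with culture in the teratoma-derived cells (TE over TF, horizontal axis) and in the satellite cells (SE over SF, vertical axis). Bars are standard errors, the dashed line marks equal changes, and red genes are the 5 whose changes differed, with Ccng1 at 1.33 and 4.29 and Sesn2 at 1.96 and -0.35.

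Among the fresh cells, 4 of the 10 genes were higher in TF than in SF (Ccng1, Trp53inp1, Phlda3 and Bax), where 15.1% of all tested genes were higher, and 0 were lower, where 9.13% were lower (24.2% in either direction). DESeq2 also gave 0 lower members, and 0 were lower at an unadjusted p below 0.05. Trp53inp1 was higher by a log2 fold change of 1.19 (edgeR quasi-likelihood adjusted p = 0.00917) and Phlda3 by 1.98 (adjusted p = 0.0021). Zmat3, at 0.90 with an adjusted p of 0.105, passed without the filter on low counts (0.00307), with the replicate block (0.0383), without SF replicate 1 (0.0122) and without either SE library (0.0392 and 0.0447). With only the TF and SF libraries in the fit 2 genes passed, Ccng1 and Phlda3, while Trp53inp1 and Bax had adjusted p-values of 0.0558 and 0.06. The median of the 10 genes was 0.94, against 0.08 over all tested genes. With median-ratio size factors the latter was -0.08, and 2110 genes were higher and 1943 lower, in place of 2655 and 1606, with the same 4 members higher.

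Among the expanded cells, 2 of the 10 genes differed. Sesn2 was higher in TE than in SE, where 3.15% of all tested genes were higher, and Ccng1 was lower, where 4.07% were lower (7.21% in either direction). The other 8 were between -0.97 (Gdf15) and 0.99 (Bbc3) on the log2 scale. Phlda3, at -0.85 with an edgeR quasi-likelihood adjusted p of 0.127, passed without the filter on low counts (0.0119), with only the TE and SE libraries in the fit (0.03) and without SF replicate 1 (0.0238) or SF replicate 2 (0.0182). Sesn1 (-0.95) passed without SE replicate 1, at -1.52 (adjusted p = 0.0401), and was at 0.033 without SE replicate 2. Bbc3 passed without SE replicate 2, at 1.82 (adjusted p = 0.0355).

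TF was also set against SE, the cultured cells of the other origin. In TF 5 of the 10 genes were lower than in SE (Mdm2, Ccng1, Phlda3, Zmat3 and Bax), where 9.16% of all tested genes were lower, and 0 were higher, where 14.5% were higher (23.6% in either direction). At an unadjusted p below 0.05, and by DESeq2 with adjustment (0.033), Sesn1 was higher, at 1.42 with an edgeR quasi-likelihood adjusted p of 0.0635. It also passed without the filter (0.00394), with the replicate block (0.0226) and without SE replicate 2 (0.00325). The log2 fold changes of the 5 lower genes were between -2.20 (Ccng1, standard error 0.19) and -1.09 (Mdm2, standard error 0.21). The call of Mdm2 (adjusted p = 0.00507) was lost without TF replicate 2 (0.0577). Gdf15, at -1.55 (adjusted p = 0.2), was at -2.30 and passed without SE replicate 1 (0.0399). The comparisons that involve SE share its libraries.

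**Figure D5:**
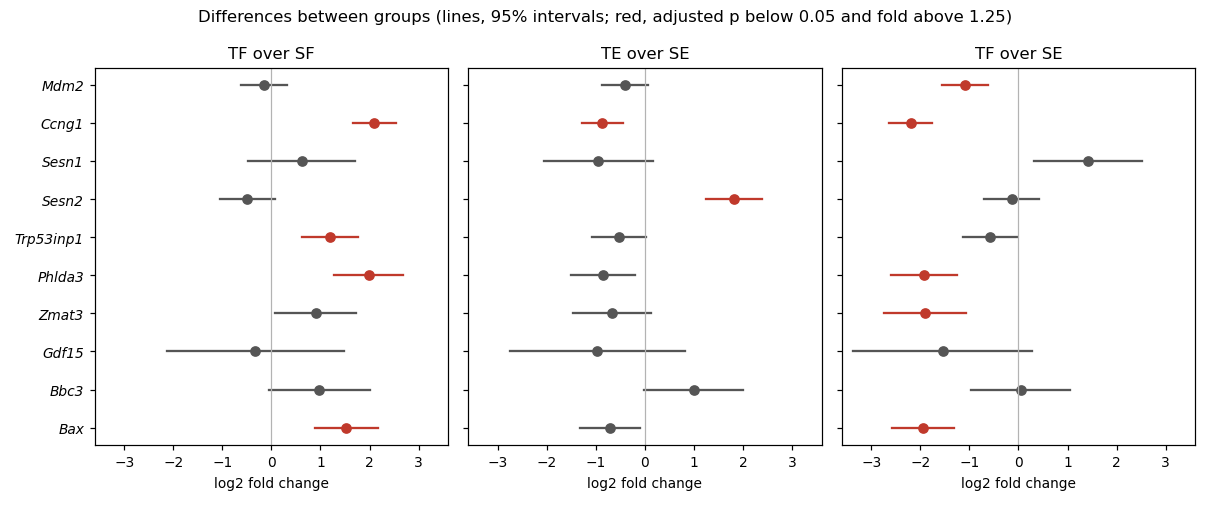
Log2 fold change of each member in TF over SF, TE over SE and TF over SE. Points are estimates and lines 95% intervals, red marks members that passed the test, and Ccng1 is at 2.10, -0.87 and -2.20 in the 3 panels.

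The regulators of p53 were described with a list of 20 genes. In TE versus TF 4 of them rose and 0 fell (1 at an unadjusted p below 0.05, Ing1), where 9.86% of all tested genes rose and 16.2% fell. In SE versus SF 6 rose and 1 fell, where 20.9% rose and 19.8% fell. The medians were 0.26 and 0.53 on the log2 scale, against -0.18 and -0.23 over all tested genes. Beside Trp53, Mdm4 and Cdkn2a, the DNA damage mediator Trp53bp1 rose in both TE and SE, by 0.72 in TE, the checkpoint kinases Chek1 (2.18) and Atr (1.20) and the ribosomal protein gene Rpl11 (0.63) rose in SE, and the deacetylase gene Sirt1 fell in SE (-1.67). Trp53, the gene of p53 itself, had 992 and 891 normalized counts in TF, 1635 and 1491 in TE, 549 and 779 in SF and 1373 and 1079 in SE, and it rose in TE over TF (log2 fold change 0.73, edgeR quasi-likelihood adjusted p = 0.0392) and in SE over SF (0.88, adjusted p = 0.0121). RNA gives no level of the p53 protein, which is set mostly by its degradation. Mdm4, the partner of Mdm2 that blocks p53, had 703 and 692 in TF, 1979 and 1659 in TE, 1224 and 1327 in SF and 1153 and 1322 in SE. It rose in TE over TF (1.38, adjusted p = 0.000632), was at -0.04 in SE over SF (adjusted p = 0.861), and the difference between the origins passed the test (1.43, adjusted p = 0.00683). Ppm1d, a phosphatase that turns p53 off, was not called in any of the 6 comparisons and lay between 207 and 314 normalized counts in all libraries. In TE versus SE 1 regulator was higher (Hipk2, 1.03, edgeR quasi-likelihood adjusted p = 0.0103) and 0 lower, where 3.15% and 4.07% of all tested genes were. In TF versus SF 3 were higher (Cdkn2a, Hipk2 and Ing1) and 3 lower (Mdm4, Sirt1 and Usp7), where 15.1% and 9.13% were. In TF versus SE 1 was higher (Hipk2) and 3 lower (Cdkn2a, Mdm4 and Trp53bp1), where 14.5% and 9.16% were.

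Cdkn2a, whose locus encodes p16 and the Mdm2 inhibitor p19Arf, had 113 and 49.6 normalized counts in TF, 787 and 930 in TE, 9.51 and 1.10 in SF and 1279 and 1172 in SE. It rose in TE over TF (log2 fold change 3.40, edgeR quasi-likelihood adjusted p = 0.000719) and in SE over SF (7.85, 95% interval from 6.42 to 9.28, adjusted p = 2e-05), the latter from so few counts in SF that its size depends on the prior count of the fit. The counts per gene do not separate p16 from p19Arf. Cdkn1a, which encodes the cyclin-dependent kinase inhibitor p21, had 2089 and 1459 in TF, 6888 and 6644 in TE, 2652 and 3207 in SF and 4202 and 8021 in SE. It rose in TE over TF (1.93, adjusted p = 0.0016) and in SE over SF (1.06, adjusted p = 0.0192).

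A further list held 51 other p53 targets, and Cdkn1a and Sesn3, described above, are among them. Of the 51, 10 rose and 11 fell in TE versus TF, where 9.86% of all tested genes rose and 16.2% fell. In SE versus SF 17 rose and 10 fell, where 20.9% rose and 19.8% fell. In SE the number that fell was near the share over all genes. The medians were 0.12 and 0.37, against -0.18 and -0.23 over all tested genes. Among those that rose were Psrc1, with 66 and 110 normalized counts in TF and 537 and 583 in TE, and Gtse1, with 8.32 and 4.40 in SF and 816 and 481 in SE, both known for roles at mitotic microtubules, and Ak1, an adenylate kinase. Among those that fell were Btg2, with 8544 and 7935 in TF and 615 and 536 in TE, Fas, a death receptor, with 636 and 799 in SF and 8.48 and 34.6 in SE, and Sfn. Btg2 also belongs to the immediate early genes, whose 14 members all fell with culture in both origins, with medians of -4.14 in TE versus TF and -4.90 in SE versus SF. In TE versus SE, 3 of the 51 were higher (Perp, Xpc and Gadd45a) and 4 lower (Pvt1, Ddit4l and Eda2r among them), where 3.15% and 4.07% of all tested genes were. Perp, which also fell in SE versus SF (log2 fold change -5.59), had few counts in SE. It had 108 and 99.1 normalized counts in SF, 3.86 and 0 in SE and 72.6 and 63.7 in TE. In TF versus SF 11 of the 51 were higher and 7 lower, where 15.1% and 9.13% of all tested genes were.

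Genes of the cell cycle, in the satellite cells, and of muscle differentiation, in both origins, moved with the members. Of 15 genes of the G2 and M phases, 14 rose in SE versus SF, where 20.9% of all tested genes rose. In TF 13 were higher than in SF, where 15.1% of all tested genes were higher. In TE versus TF 1 rose, where 9.86% of all tested genes rose. Mki67, a mark of cycling cells, had 214 and 228 normalized counts in SF, 6132 and 6709 in TF, 7633 and 6306 in TE and 11320 and 4552 in SE. Of 10 genes of differentiated muscle, 9 rose in TE versus TF and 9 in SE versus SF, against the same shares of all tested genes (9.86% and 20.9%). Their summed normalized counts were 2640 and 1719 in SF, 16320 and 8626 in TF, 123600 and 131300 in TE and 117400 and 251500 in SE. SF was lowest and TF next in these sums, as in Ccng1, Phlda3 and Bax. Their part in the differences of the p53 targets was not tested.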

How the data were processed

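Libraries were made from total RNA with a stranded low-input kit. The deposited table holds estimated counts per gene symbol, which the authors made with kallisto 0.44.0 (GRCm38 and mm10 are named in the submitters' processing notes, with CASAVA). How transcripts were summed to genes and whether counting used strand is not given in the sources used here. For the results above, the estimates were rounded to integers, low genes were dropped with filterByExpr, and libraries were scaled by TMM. One fit over the 4 groups was made with edgeR 4.0.16 in R 4.3.3 (quasi-likelihood test, Benjamini-Hochberg adjustment over 17582 genes, two-sided), with the study's thresholds (adjusted p of 0.05, and a level more than 25% above the lower group). Standard errors are the absolute log2 fold change divided by the square root of F. DESeq2 1.42.0, median-ratio factors, no filter, only the groups compared, a replicate block, glmTreat and leaving out each library were alternatives, and a library left alone in its group was assumed to vary like the other groups. The script was tested on simulated data. The members and lists were chosen with earlier results of these data known. All members, Trp53, Mdm4, Ppm1d, Cdkn2a, Cdkn1a and called regulators were named. From the other p53 targets, the 3 genes that rose and the 3 that fell most among those called with a mean normalized count of at least 50 were eligible to be named, and from each other list 2 in each direction. Sesn3, Ing1, Ddit4, Slc7a11, Mki67, Asns, Phgdh, Ppp1r15a, Pmaip1 and genes of the BCL2 family were named after their values were seen. The total counts (11930881 to 21146554 per library) bound counting error only. Normalized counts of different genes were not compared, since no gene length enters them. Promoters were RefSeq GRCm38.p6 and gene positions GENCODE M21.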

Additional observations from a re-analysis of the deposited data

Results flagged for a closer look

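For 5 of the 10 genes the change with culture differed between the teratoma-derived and the satellite cells in edgeR's quasi-likelihood test of the difference itself, with Benjamini-Hochberg adjustment over all tested genes. The difference, TE over TF minus SE over SF on the log2 scale, was -2.961 for Ccng1, -2.833 for Phlda3, -2.239 for Bax, -1.723 for Trp53inp1 and 2.310 for Sesn2. Ccng1, Phlda3 and Bax rose in both origins, and less so in the teratoma-derived cells. Trp53inp1 rose in the satellite cells, and Sesn2 in the teratoma-derived cells. In the same test 13 of 15 G2 and M phase genes had a lower change in the teratoma-derived cells, as did 8 of 10 genes of differentiated muscle. Of all tested genes 9.62% had a lower change. Most of the G2 and M phase genes and of the muscle genes thus shared the sign of this difference with Ccng1, Phlda3, Bax and Trp53inp1. They did not all move alike in TE versus TF. There 1 of the 15 G2 and M phase genes rose, while Ccng1, Phlda3 and Bax rose. Of the muscle genes 9 of 10 rose there, while Trp53inp1 was at 0.05 on the log2 scale and was not called. The part of these genes was not tested.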

How the results depend on the processing

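Leaving out any 1 library gave between 3 and 7 called members in TE versus TF, against 7 with all, between 6 and 7 in SE versus SF, between 4 and 5 in TF versus SF, between 1 and 3 in TE versus SE, against 2, between 4 and 6 in TF versus SE, and between 4 and 6 for the difference between the origins. A test against the fold threshold (glmTreat) gave 1 member in TE versus SE, and a fit of only the groups compared gave 2 in TF versus SF, against 4. Replicates with the same number in different groups did not deviate together (correlations between -0.0261 and 0.0754). With 2 libraries in a group, such correlations cannot exclude that these samples shared an animal, a teratoma or a culture. With the replicate block the counts were 6, 6, 5, 2, 6 and 6, in the order above, and the block changed the calls of Mdm2 in TE versus TF, of Zmat3 in TF versus SF and in the difference, and of Sesn1 in TF versus SE. The direction turned only for values that were not called. Trp53inp1 in TE versus TF was -0.005585 on the log2 scale with median-ratio size factors and -0.005608 with DESeq2. With 1 library left out, Gdf15 was between -0.30 and 1.98 in SE versus SF, between -1.02 and 0.29 in TF versus SF, between -1.69 and 0.57 in TE versus SE and between -1.37 and 0.89 in the difference. Mdm2 in TF versus SF was between -0.37 and 0.089, Sesn1 in TE versus SE between -1.52 and 0.033, and Sesn2 in TF versus SE between -0.38 and 0.035. Bbc3 was between -0.50 and 0.86 in TF versus SE and between -0.51 and 0.83 in the difference. The cause was not tested. With 2 libraries in a group, members with uneven replicates, such as Gdf15, Sesn1 and Bbc3 in SE, have wide intervals.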

Other observations

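Genes of the BCL2 family, to which Bax and Bbc3 belong, moved in both directions. Of a list of 12 that leaves out the p53 targets of the family, 0 rose and 4 fell in TE versus TF (Mcl1, Bcl2, Bcl2a1b and Bcl2l11), where 9.86% of all tested genes rose and 16.2% fell. In SE versus SF 2 rose (Bak1 and Bcl2l1) and 1 fell (Mcl1), where 20.9% rose and 19.8% fell. Bcl2a1b had 322 and 40.5 normalized counts in TF and 0 in both TE libraries, and so was highest in TF replicate 1, as were the summed haematopoietic markers (3894 against 442), whose part was not tested. Bid, a BH3-only gene counted among the other p53 targets, had 83.9 and 65.2 in TF, 353 and 383 in TE, 41.6 and 7.71 in SF and 209 and 135 in SE. It rose in TE over TF (log2 fold change 2.30, edgeR quasi-likelihood adjusted p = 0.0273) and in SE over SF (2.80, adjusted p = 0.00921). Pmaip1, another such gene, was at 1.06 in TE over TF (adjusted p = 0.0768) and 0.43 in SE over SF (adjusted p = 0.388). Mcl1, which protects cells from death and is quickly turned over, had 8935 and 6859 normalized counts in TF, 1779 and 1584 in TE, 12360 and 16010 in SF and 1666 and 1361 in SE. It fell in TE versus TF by a log2 fold change of -2.23 (edgeR quasi-likelihood adjusted p = 0.00012) and in SE versus SF by one of -3.23 (adjusted p = 1.2e-05). Bak1, the other pore-forming protein beside Bax, had 532 and 442 in TF, 483 and 663 in TE, 61.8 and 60.5 in SF and 338 and 434 in SE. Like Bax it was lowest in SF, and its change with culture was lower in the teratoma-derived cells (difference -2.42, adjusted p = 0.00528).

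Over the 8 libraries, the mean of the 10 genes on a centred and scaled log2 scale was -0.80 and -0.93 in SF, -0.13 and -0.29 in TF, 0.52 and 0.41 in TE and 0.39 and 0.83 in SE. Sesn1 ran against it, with a median correlation of -0.60 with the other 9 genes, while Bax (0.81), Phlda3 (0.78) and Ccng1 (0.78) had the highest medians. The libraries share groups of origin and culture, and these values are descriptions. The genes most like this mean among 12709 were Apobec2 (Pearson r = 0.995), Myom2, Lsm7, Pbxip1 and Tnnt1 (0.992). Myom2 and Tnnt1 encode proteins of the sarcomere. Myom2 had 667 and 325 normalized counts in TF, 4179 and 4393 in TE, 63 and 46.2 in SF and 3116 and 7789 in SE.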
